A study of Mus musculus with 4 samples.

Results

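The tumour suppressor p53, encoded by Trp53 in the mouse, is a transcription factor that is held low by the ubiquitin ligase MDM2 and is stabilised after DNA damage and other stress. It then binds response elements near its target genes, which encode regulators of p53 itself, cell cycle inhibitors, apoptosis factors, DNA repair proteins and metabolic enzymes. In activated T cells the pathway is known as a brake on proliferation and as part of the response to replication stress. The 38 genes described here are Trp53, its inhibitors Mdm2 and Mdm4, and genes known as p53 targets. They were taken by gene symbol from a table of 52636 genes, and every symbol matched 1 row. Cdkn1a, Bax, Bbc3 and other well-known p53 targets stand in a second list of other p53 pathway genes.

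RNA was sequenced from Th17 cells, helper T cells that secrete interleukin 17, raised in culture from naive cells of C57BL/6 mice. A control genotype, PP2A WT, was set against a conditional knockout, PP2A cKO, each with 2 libraries. PP2A removes phosphate from serine and threonine residues of proteins. The labels name neither the deleted subunit nor the Cre driver, and do not say whether the replicates were separate mice or cultures. Both genotypes received the same treatment. Polarisation took 2 days beside 3 irradiated antigen presenting cells per naive cell. The medium held IL-6 at 20 ng/ml and TGF-β1 at 2 ng/ml, stimulating antibodies to CD28 and CD3 at 2 µg/ml, and antibodies blocking IFN-γ and IL-4 at 10 µg/ml. PMA (50 ng/ml) and ionomycin (500 ng/ml) followed for 4 h. All values are FPKM, fragments scaled to gene length and to library size.

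Between 18517487 and 20387948 gene-assigned reads stood behind each library. The 4 core PP2A genes Ppp2ca, Ppp2cb, Ppp2r1a and Ppp2r1b ran from 25.5 to 110 FPKM and none passed the test described below, so directions rest on the labels of the libraries. Ppp2ca had 42.2 and 50.1 FPKM in WT and 41.8 and 34.5 in cKO (limma, adjusted p = 0.36). Its cKO values lay below WT without overlap, as for 28.7% of all tested genes, while Ppp2cb, Ppp2r1a and Ppp2r1b overlapped. T cell genes were present throughout, with Cd4 between 104 and 128 FPKM and Il17a between 479 and 757. The 5 Th17 marker genes summed to 3813 to 4154 FPKM in WT and 2939 to 3040 in cKO, none of them called, and the part of this in the results below was not tested. In bulk samples fewer cells of a type and less RNA per cell cannot be told apart. Irradiated cells can carry active p53, so markers of the antigen presenting cells were summed. The 6 B cell markers summed to 0.374 to 0.652 FPKM in WT and 0.547 to 0.755 in cKO. The 9 myeloid and dendritic markers summed to 0.605 to 0.912 in WT and 0.267 to 0.503 in cKO, with Clec9a and Siglech at 0 reads in every library. Defining B cell, myeloid and dendritic markers were thus at or near 0 in both genotypes. The 4 CD8 T cell and NK cell markers summed to 7.61 to 8.24 FPKM in WT and 9.29 to 10.2 in cKO. Most of this was Cd8b1, at 7.06 and 7.91 in WT and 9.03 and 9.84 in cKO (limma, adjusted p = 0.198). Which cells it came from was not tested. The cKO libraries differed more from each other than the WT libraries did. The SD of their difference over genes was 0.304 on the log2 scale against 0.209, and it followed the GC content of the transcripts (Spearman's rho = -0.529 across genes, which are not independent).

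A p53 response element is built from a pair of copies of a 10-base consensus, the p53 decamer, which reads the same on both strands. RefSeq promoter windows of build GRCm38.p6, from 250 bases before the start site to 50 bases from it on, were found for 31 of the 38 genes. An exact decamer stood in the window of 11 of 28 tested members (39.3%), against 582 of 7440 tested genes with a window (7.82%) and 8.36% of all 32851 windows. The 11 were Abhd4, Aen, Ccng1, Ei24, Gadd45a, Mdm2, Polk, Ppm1d, Rap2b, Sesn1 and Trp53. The genes were listed as p53 targets, so this share describes the list. A pair of adjacent copies was sought only where each copy kept its central C and G. With at most 2 mismatches, such a pair stood in the window of 1 member, Ccng1, and of 0.444% of tested genes with a window.

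The lines below show the decamers of the 4 regulators of p53 that hold one, and of Gadd45a and Sesn1, each from a pair of related members described below, because p53 is known to bind this element. The upstream decamers of Aen, Ei24 and Polk are not printed. A match is a description of letters and not a measured site. Each line gives 5′ to 3′ sequence on the gene's strand, with the match in capitals. The Ccng1 line shows the pair of decamers, which has 1 mismatch over 20 bases, and the others show single exact decamers.
Ccng1, chr11:40755462-40755481, minus strand: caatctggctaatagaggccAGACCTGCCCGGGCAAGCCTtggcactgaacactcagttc
Mdm2, chr10:117710935-117710944, minus strand: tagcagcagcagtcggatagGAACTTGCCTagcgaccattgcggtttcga
Trp53, chr11:69580284-69580293, plus strand: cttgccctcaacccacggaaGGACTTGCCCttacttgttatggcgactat
Gadd45a, chr6:67037438-67037447, minus strand: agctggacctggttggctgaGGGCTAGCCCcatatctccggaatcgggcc
Sesn1, chr10:41887266-41887275, plus strand: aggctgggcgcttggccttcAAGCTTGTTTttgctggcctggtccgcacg
Ppm1d, chr11:85311122-85311131, plus strand: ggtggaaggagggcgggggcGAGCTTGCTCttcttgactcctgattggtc

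The most raised members, described next, held no exact decamer in their windows. Among stretches that kept the central C and G of both copies, the closest match to a pair had 5 mismatches in Phlda3. It had 7 in Btg2 and 10 in Psrc1. By the same rule 12.4%, 39.5% and 66.1% of all windows held a match as close. Stretches without those bases were not searched and may match more closely. The stretches of Phlda3 and Btg2 are shown in the same way for comparison with Ccng1, and say nothing of sites outside the windows.
Phlda3, chr1:135766042-135766061, plus strand: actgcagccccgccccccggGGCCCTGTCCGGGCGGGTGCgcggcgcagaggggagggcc
Btg2, chr1:134079269-134079288, minus strand: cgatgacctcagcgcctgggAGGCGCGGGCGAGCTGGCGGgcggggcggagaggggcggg

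Of the 38 members, 35 averaged 1 FPKM or more across all 4 libraries and were tested with limma on log2(FPKM + 1) together with all 10562 such genes. Phlda3, Btg2 and Psrc1 rose in cKO past an adjusted p of 0.05. This is 3 of 35 (8.57%), against 0.814% of all tested genes called higher and 1.07% called in either direction. The members were chosen with earlier results of these data known, so this share and those that follow describe the list. No member was called lower by limma, against 0.256% of all tested genes. At an unadjusted p under 0.05, limma placed 12 of 35 members higher and 5 lower, against 9.56% and 10.3% of all tested genes (19.8% in either direction). limma voom on reads recovered from the FPKM values called 7 members higher and 0 lower, against 2.69% and 2.49% of all genes. limma after a correction for GC content called 7 higher and 0 lower, against 2.35% and 2.41%. The same 7 members were called by both, namely the 3 above with Plk2, Plk3, Ccng1 and Mdm2.

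Both cKO libraries lay above both WT libraries for 17 of the 35 members (48.6%), against 27.2% of all tested genes. They lay below for 9 (25.7%), against 28.7%, and non-overlap in either direction held for 55.9% of all genes. The median log2 fold change of the 35 was 0.10, against -0.003 for all tested genes. Against the WT mean, this median was 0.20 in cKO replicate 1 and 0.08 in replicate 2. The plot of levels by library shows the 4 values of each tested member.

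**Figure D1:**
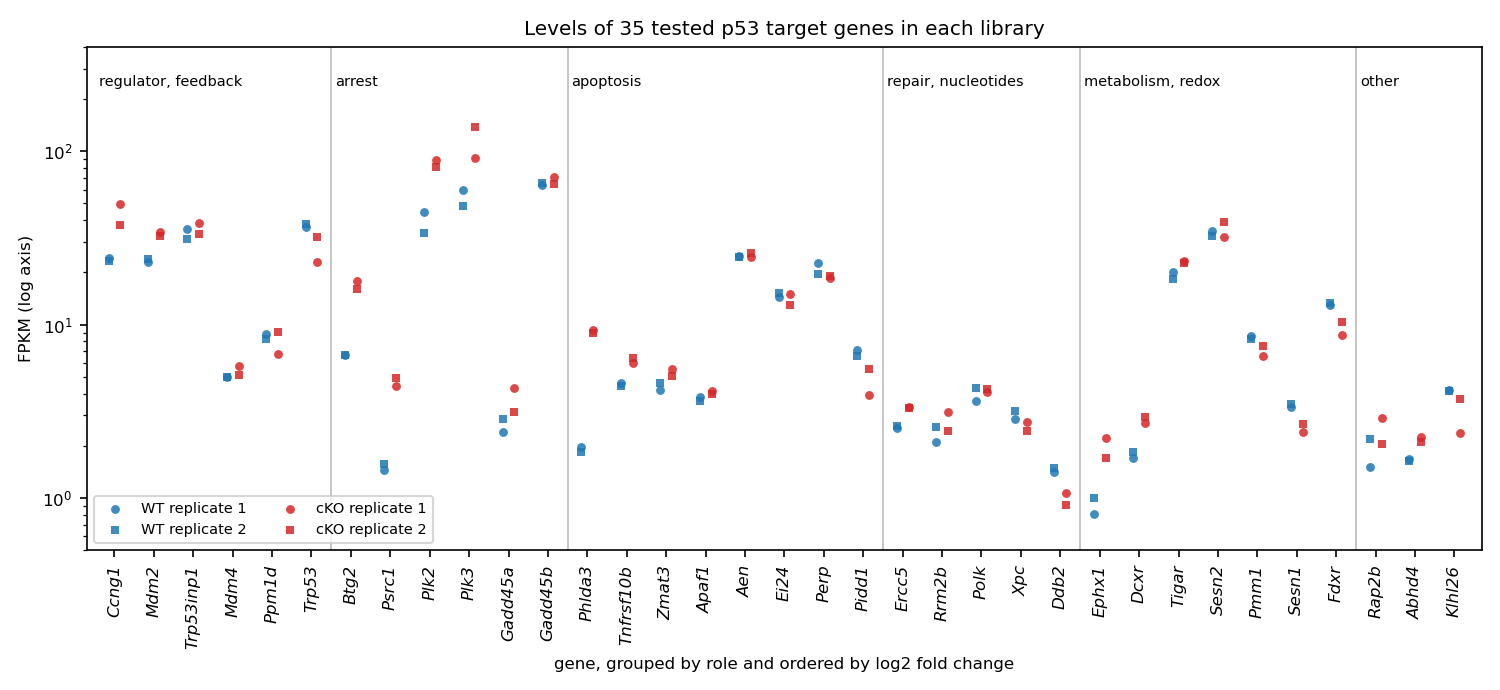
FPKM on a log axis (y) of the 35 tested members (x), grouped by role, with circles for replicate 1 and squares for replicate 2 of WT (blue) and cKO (red). Phlda3, Btg2, Psrc1, Plk2 and Plk3 show both cKO libraries well above both WT libraries, while Aen and Gadd45b overlap.

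Phlda3 encodes a pleckstrin homology protein that competes with the kinase AKT for membrane lipids and so restrains AKT. Its level (chromosome 1, 135766119 to 135769136, GRCm38) was 1.97 and 1.85 FPKM under WT against 9.28 and 8.96 under cKO. The libraries of a genotype were close together and far from those of the other. The mean went from 1.91 ± 0.0850 to 9.12 ± 0.225 FPKM (SD, n = 2), which is 4.79-fold. The log2 fold change was 1.80 ± 0.09 (SE; limma, adjusted p = 0.0108), the 14th highest of all tested genes. These values rested on 60 and 55 reads in WT and on 294 and 271 in cKO. Phlda3 also passed with any 1 library left out (adjusted p from 0.0116 to 0.0316).

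Of 6 tested arrest genes, limma called 2 higher and voom 4, against 0.814% and 2.69% of all tested genes. For 5 of them (83.3%) cKO lay above WT without overlap, against 27.2% of all tested genes. The median log2 fold change of the 6 was 1.08. The roles were chosen with earlier results of these data known. Btg2 (chromosome 1, 134075170 to 134079120) encodes an antiproliferative protein that recruits the mRNA deadenylation machinery. WT gave 6.67 and 6.68 FPKM against 17.8 and 16.04 for cKO. The 2 WT values were nearly equal and the cKO values were higher in both libraries. The mean rose 2.54-fold, with a log2 fold change of 1.22 ± 0.09 (limma, adjusted p = 0.0206). Psrc1 (chromosome 3, 108383839 to 108388231) encodes a microtubule-binding protein of the mitotic spindle. It had 1.44 and 1.57 FPKM in WT and 4.42 and 4.94 in cKO, from 95, 101, 302 and 322 reads. Its mean rose 3.10-fold, with a log2 fold change of 1.18 ± 0.10 (limma, adjusted p = 0.027). Both missed the threshold without WT replicate 1 (adjusted p = 0.0527 for Btg2 and 0.0522 for Psrc1) or WT replicate 2 (0.0662 and 0.0504), at nearly the same fold changes.

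The polo-like kinase genes Plk2 and Plk3, whose products act in stress and cell cycle checkpoints, were among the most abundant members. Plk2 had 44.4 and 33.7 FPKM in WT and 88.9 and 81.7 in cKO. Plk3 had 60.2 and 48.3 FPKM in WT and 91.1 and 138 in cKO, the highest mean of the list at 84.5 FPKM. Neither gene's genotypes overlapped, but the 2 WT libraries lay further apart than for Btg2. The log2 fold change was 1.12 ± 0.16 for Plk2 (limma, adjusted p = 0.0526) and 1.04 ± 0.23 for Plk3 (adjusted p = 0.0979), and neither passed. Their 95% intervals ran from 0.72 to 1.52 and from 0.46 to 1.63. By voom both passed (adjusted p = 0.012 and 0.0334). Plk3 lay 0.75 above the WT mean in cKO replicate 1 and 1.34 above it in cKO replicate 2.

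The GADD45 stress proteins bind PCNA and the activator of p38 and JNK signalling. Gadd45b was the second most abundant member, with 64.1 and 65.7 FPKM in WT and 71.2 and 64.6 in cKO. The genotypes overlapped, with a log2 fold change of 0.06 ± 0.10 (95% interval -0.20 to 0.32; limma, adjusted p = 0.746). Its sign turned with TPM scaling (-0.030) and without cKO replicate 1 (-0.0064). Gadd45a, the classical p53 target of the family, had 2.40 and 2.85 FPKM in WT and 4.32 and 3.13 in cKO. Its cKO values lay above WT by unequal amounts, and its log2 fold change of 0.37 ± 0.16 did not pass (adjusted p = 0.274). The difference between the family members was not tested.

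**Figure D2:**
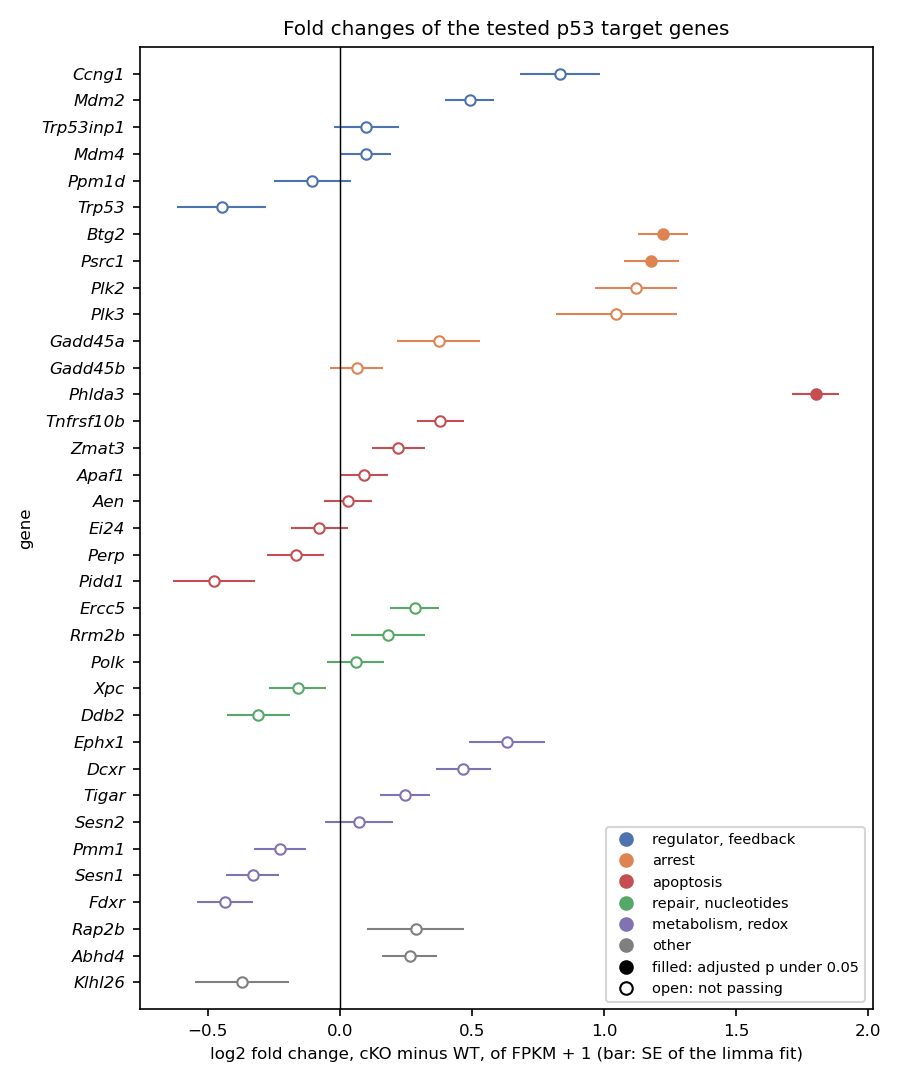
Log2 fold change of FPKM + 1, cKO minus WT (x), with the SE of the limma fit as bars, for the 35 tested members (y) coloured by role. Filled points, Phlda3 at 1.80, Btg2 at 1.22 and Psrc1 at 1.18, passed an adjusted p of 0.05, while Plk2 at 1.12 and Plk3 at 1.04 did not.

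Among the regulators of p53, none of 6 was called by limma and 3 had an unadjusted p under 0.05 (19.8% of all tested genes). By voom 2 were called higher, against 2.69% of all tested genes. Trp53 itself had 36.7 and 38.0 FPKM in WT and 23.0 and 31.9 in cKO. Both cKO values were lower, that of replicate 1 most. Means were 37.3 ± 0.885 for WT against 27.5 ± 6.33 for cKO (SD, n = 2), and the log2 fold change of -0.45 ± 0.17 did not pass (limma, adjusted p = 0.237). The difference from the WT mean was -0.68 in cKO replicate 1 and -0.22 in cKO replicate 2. With cKO replicate 2 left out Trp53 was called lower (adjusted p = 0.012), as were Fdxr, Klhl26 and Pidd1, in a setting that called 1390 of all tested genes higher and 1614 lower. These are transcript levels, and p53 protein was not measured.

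Mdm2 encodes the ligase that marks p53 for degradation and is itself a p53 target, so it forms the main feedback loop. It had 23.0 and 23.8 FPKM in WT and 34.4 and 32.3 in cKO, with both cKO values higher by a similar amount. The log2 fold change was 0.49 ± 0.09 (95% interval 0.26 to 0.73), short of the threshold with limma (adjusted p = 0.0775) and past it with voom (0.0337). Mdm4 encodes a related inhibitor of p53. Its values were 5.01 and 5.005 FPKM in WT and 5.77 and 5.12 in cKO, and the log2 fold change was 0.10 ± 0.10 (95% interval -0.14 to 0.34; adjusted p = 0.581). The intervals of Mdm2 and Mdm4 overlap, and their difference was not tested.

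Ccng1 encodes cyclin G1, which is known to recruit PP2A to MDM2. It had 24.1 and 23.2 FPKM in WT and 49.4 and 37.4 in cKO. Both cKO values were higher, that of replicate 1 most. Means were 23.7 ± 0.630 for WT against 43.4 ± 8.53 for cKO (SD, n = 2), which is 1.83-fold, and the log2 fold change of 0.83 ± 0.15 did not pass (limma, adjusted p = 0.0734). It passed with voom (0.0225) and after the GC correction (0.0352), and its transcript, at 40.8% GC, is one of the more AT-rich of the list. Ppm1d, which encodes the phosphatase WIP1 that turns off p53 signalling, had 8.84 and 8.28 FPKM in WT and 6.81 and 9.12 in cKO, and the genotypes overlapped. Trp53inp1, which encodes a stress protein that promotes p53 activity, had 35.7 and 31.3 FPKM in WT and 38.5 and 33.5 in cKO, again with overlap. Their log2 fold changes were -0.10 ± 0.14 and 0.10 ± 0.12.

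Among the apoptosis genes, Phlda3 was the 1 of 8 tested that was called (12.5%, against 1.07% of all tested genes). The death receptor gene Tnfrsf10b, which encodes the mouse TRAIL receptor, had 4.59 and 4.44 FPKM in WT and 5.98 and 6.39 in cKO. Its libraries did not overlap, but the log2 fold change of 0.38 ± 0.09 did not pass (limma, adjusted p = 0.109). Pidd1, which encodes the scaffold of the PIDDosome, had 7.18 and 6.59 FPKM in WT and 3.92 and 5.51 in cKO. It had the lowest fold change of the list, -0.48 ± 0.15 (adjusted p = 0.19), and cKO replicate 1 was again the lower library. The apoptosome gene Apaf1, the exonuclease gene Aen, the endoplasmic reticulum gene Ei24, the membrane protein gene Perp and the RNA-binding protein gene Zmat3 had log2 fold changes between -0.17 and 0.22. Aen and Ei24 overlapped between genotypes.

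Eda2r, a TNF receptor family gene, fell under the filter and has no test. WT gave 5 and 3 reads against 17 and 19 for cKO. The cKO counts were higher in both libraries, and per library total the summed reads stood 4.27-fold higher (exact 95% interval 1.95 to 10.6, counting error only). Gdf15, which encodes a stress cytokine, had 2 and 1 reads in WT and 2 and 4 in cKO. The adenylate kinase gene Ak1 had 13 and 10 reads in WT and 26 and 15 in cKO, a ratio of 1.69 (exact 95% interval 0.991 to 2.95). Reads without molecular identifiers are not independent molecules, so these intervals cover counting error only.

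Of the 5 tested DNA repair genes, limma and voom each called 0, and 2 had an unadjusted p under 0.05, against 19.8% of all tested genes. The largest difference was that of Ddb2, a damage recognition gene, with 1.42 and 1.49 FPKM in WT and 1.06 and 0.905 in cKO (log2 fold change -0.31 ± 0.12, limma, adjusted p = 0.245). Ddb2 overlaps Acp2 on the opposite strand, and the strand setting of the counting is not given in the sources used here. Ercc5, which encodes the endonuclease XPG, had 2.52 and 2.59 FPKM in WT and 3.35 and 3.30 in cKO (0.28 ± 0.09, adjusted p = 0.194). The ribonucleotide reductase gene Rrm2b had 2.096 and 2.55 FPKM in WT and 3.13 and 2.43 in cKO (0.18 ± 0.14, adjusted p = 0.498). It is uncertain, since the processed pseudogene Gm3362 lies within it on the same strand, at a mean of 77.7 FPKM. The lesion recognition gene Xpc and the translesion polymerase gene Polk had log2 fold changes of -0.16 and 0.06, and Polk changed sign in 3 settings.

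The metabolic and redox genes split by sign. Of 7 tested, limma and voom each called 0, and 5 had an unadjusted p under 0.05, against 19.8% of all tested genes. Both cKO libraries lay above WT for Ephx1, Dcxr and Tigar (42.9%, against 27.2% of all tested genes). They lay below it for Fdxr, Sesn1 and Pmm1 (42.9%, against 28.7%). Ephx1, which encodes the microsomal epoxide hydrolase, had 0.812 and 0.993 FPKM in WT and 2.22 and 1.69 in cKO, 2.17-fold in the means (log2 fold change 0.63 ± 0.14, limma, adjusted p = 0.102). Dcxr, which encodes a xylulose reductase, had 1.70 and 1.83 FPKM in WT and 2.71 and 2.93 in cKO (0.47 ± 0.10, adjusted p = 0.0999). Both rested on few reads, at most 88 in a library. Fdxr, which encodes the mitochondrial ferredoxin reductase, had 13.02 and 13.3 FPKM in WT and 8.75 and 10.3 in cKO (-0.43 ± 0.11, adjusted p = 0.119).

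The sestrins restrain the growth kinase complex mTORC1. Sesn2 had 34.7 and 32.5 FPKM in WT and 31.9 and 39.2 in cKO, and the genotypes overlapped (log2 fold change 0.07 ± 0.13). Sesn1, much less abundant per length, had 3.36 and 3.50 FPKM in WT and 2.39 and 2.67 in cKO. It was lower in both cKO libraries, but the log2 fold change of -0.33 ± 0.10 did not pass (limma, adjusted p = 0.169). Tigar, which encodes a phosphatase that slows glycolysis, had 20.1 and 18.3 FPKM in WT and 23.3 and 22.5 in cKO (0.25 ± 0.10, adjusted p = 0.249). Of the members with other roles, the small GTPase gene Rap2b, the lipase gene Abhd4 and Klhl26 had log2 fold changes of 0.29, 0.26 and -0.37. For Rap2b, WT had 1.505 and 2.18 FPKM and cKO had 2.88 and 2.05, with overlap. For Abhd4, WT had 1.67 and 1.63 FPKM and cKO had 2.25 and 2.11. For Klhl26, WT had 4.22 and 4.13 FPKM and cKO had 2.37 and 3.74. None of the 3 passed (limma, adjusted p = 0.423, 0.255 and 0.32).

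The 2 cKO libraries differed from the WT mean in the same direction for 30 of the 35 members, up for 21 and down for 9. They share the WT mean, so this is a description. For 11 members the cKO libraries differed from each other by more than the genotypes did. Neither count is given here for all tested genes, so neither can be set against a background. Pidd1, Trp53, Klhl26 and Fdxr, all lower in cKO, were lowest in cKO replicate 1. Their transcripts had 57.2%, 53.3%, 58.2% and 60.0% GC. Pmm1, Sesn1 and Perp, at 59%, 49.8% and 48% GC, were also lower in cKO and lowest in replicate 1. Xpc and Ddb2, at 52.6% and 45.1% GC, were lower in cKO and lowest in replicate 2. At 62.6% and 60.1% GC, Phlda3 and Dcxr lay above the WT mean in both cKO libraries. The part of GC content was not tested. None of Pidd1, Trp53, Klhl26 and Fdxr passed before the GC correction (limma, adjusted p = 0.19, 0.237, 0.32 and 0.119). After it their log2 fold changes were -0.40, -0.42, -0.28 and -0.33, and none passed (limma, adjusted p = 0.0852, 0.152, 0.195 and 0.079). They were called lower without cKO replicate 2, a setting run without the GC correction.

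**Figure D3:**
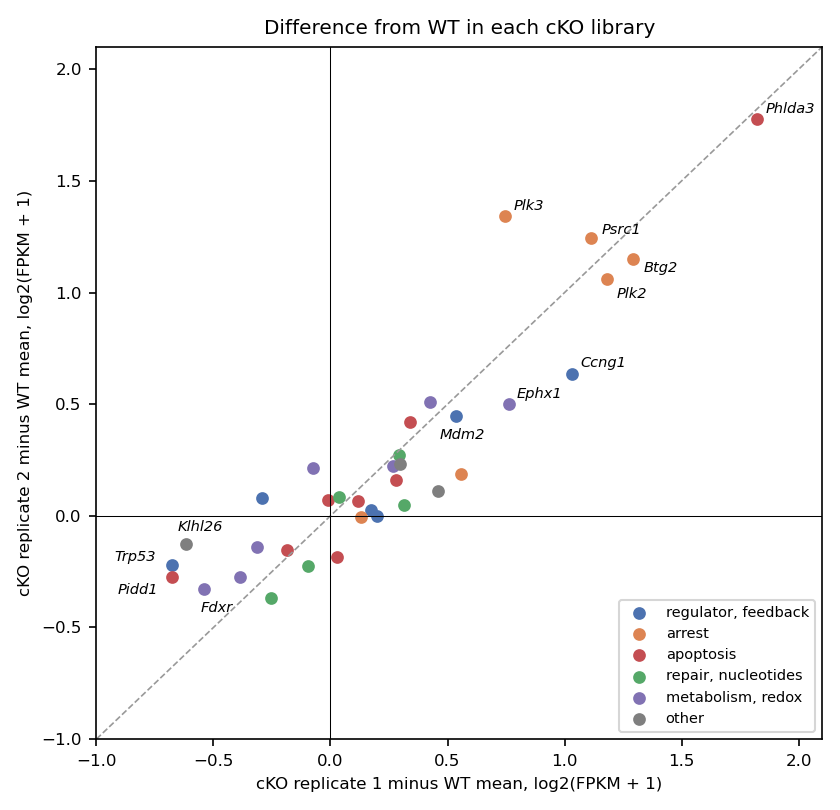
Difference from the WT mean in log2(FPKM + 1) for cKO replicate 1 (x) and cKO replicate 2 (y), with 1 point per tested member coloured by role and a dashed line of equality. Phlda3 lies at 1.82 and 1.78, close to the line, while Plk3 lies at 0.75 and 1.34 and Trp53 at -0.68 and -0.22.

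The second list held 57 other p53 pathway genes, of which 45 were tested. Cdkn1a, the gene of the cyclin-dependent kinase inhibitor p21, was the 1 called higher by limma (2.22%, against 0.814% of all tested genes). It had 52.5 and 44.7 FPKM in WT and 155 and 138 in cKO (log2 fold change 1.57 ± 0.13, limma, adjusted p = 0.0242). None was called lower by limma, against 0.256% of all tested genes. At an unadjusted p under 0.05, 10 of the 45 were higher and 9 lower, against 9.56% and 10.3% of all tested genes. voom called 4 higher and 2 lower, against 2.69% and 2.49%. The median log2 fold change of the 45 was -0.04. Medians by role are given as a description, and differences between roles were not tested. The median was 0.30 for the 6 arrest genes and 0.31 for the 9 tested apoptosis genes. It was -0.07 for genes upstream of p53, -0.10 for repair, -0.14 for metabolism and redox, and 0.07 for other roles. Bbc3, which encodes the apoptosis activator PUMA and was picked after its values were seen, had 2.05 and 1.55 FPKM in WT and 6.05 and 10.4 in cKO. Its cKO libraries were both higher but unequal, and the log2 fold change of 1.69 ± 0.25 did not pass (adjusted p = 0.0552). Bax had 67.1 and 70.1 FPKM in WT and 63.1 and 82.6 in cKO, with overlap (0.07 ± 0.15, limma, adjusted p = 0.804). Gls2, picked as the lowest fold change of the second list, had 5.99 and 4.82 FPKM in WT and 2.61 and 3.12 in cKO. Its log2 fold change of -0.73 ± 0.13 did not pass (limma, adjusted p = 0.0743). Of 12 tested genes upstream of p53, limma called 0, with 4 lower and 0 higher at an unadjusted p under 0.05 (10.3% and 9.56% of all tested genes), and voom called 1 lower. The damage kinase gene Atm, also picked after its values were seen, had 3.19 and 3.37 FPKM in WT and 2.28 and 2.00 in cKO (-0.45 ± 0.10, adjusted p = 0.109).

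**Figure D4:**
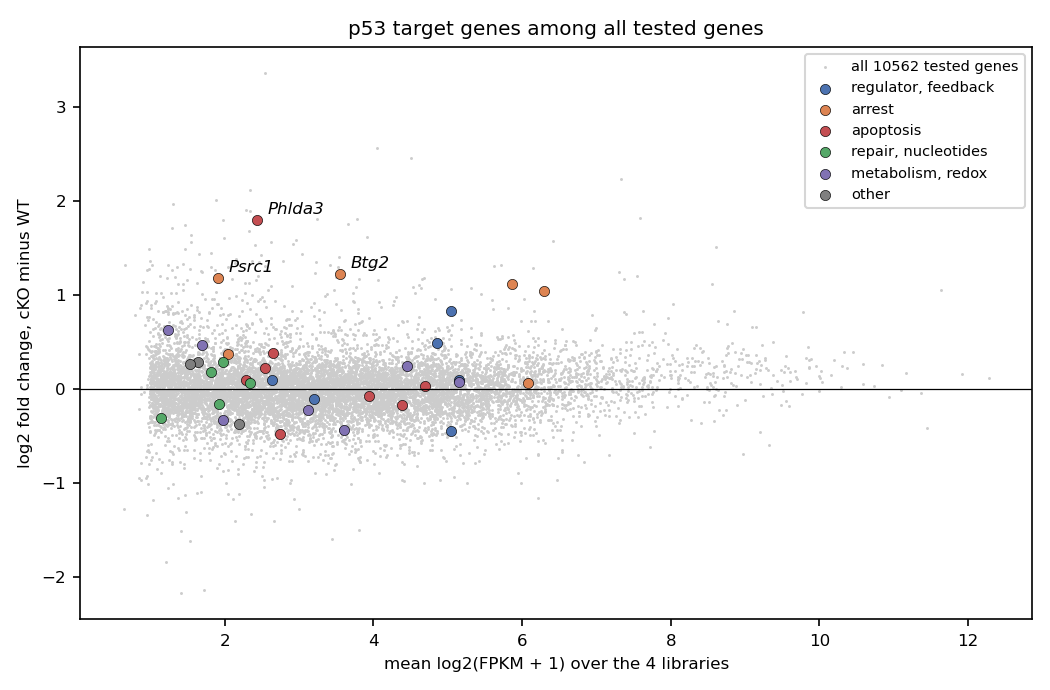
Log2 fold change, cKO minus WT (y), against the mean log2(FPKM + 1) over the 4 libraries (x) for all 10562 tested genes in grey and the 35 tested members coloured by role. The called members Phlda3, Btg2 and Psrc1 lie at 1.80, 1.22 and 1.18, while the median of all genes is -0.003.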

How the data were processed

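The authors deposited 1 table of FPKM per gene for 4 libraries, with gene lengths. Per the submitters' processing notes, genes were counted with featureCounts 1.5.0-p3 on GRCm38 (mm10). Aligner, annotation release and strand setting: not given in the sources used here. Multiplying FPKM by gene length and dividing by what 1 read is worth in that library returned whole reads (tolerance 0.01) for 100% of non-zero values, which gave the depths. The test was limma 3.58.1 (R 4.3.3) on log2(FPKM + 1) across the 10562 genes averaging 1 FPKM or more, with a variance trend, 2 libraries a group, no block, two-sided, and Benjamini-Hochberg adjustment at 0.05 over all tested genes. This scale understates changes of low genes. For 1 gene alone, exact permutation of 2 against 2 libraries gives 0.333 at the smallest. The spread behind the p-values is that between 2 libraries a group and may be technical. The procedure was tested on simulated data. Alternatives were another pseudocount, other filters, scalings and variance models, a replicate block, each library left out, voom with TMM factors, and a spline correction for transcript GC from GENCODE M21. The members and lists, and the 6 roles, were chosen with earlier results of these data known. Named were all called members, the 3 largest changes per role, pairs of related genes, and Cdkn1a. Of the second list, 1 symbol was matched by a synonym.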

Additional observations from a re-analysis of the deposited data

How the results depend on the processing

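Phlda3 was called in every setting except without a filter on low values, where limma called 0 genes (3012 at an unadjusted p under 0.05, with 13 members higher and 3 lower among them). Members called higher numbered 3 in the main test, 7 by voom, 7 after GC correction, 4 with the replicate block and 1 to 10 with each library left out, the 1 without WT replicate 1 or 2 being Phlda3. Members called lower numbered 0 to 4 with each library left out, the 4 without cKO replicate 2. A library alone in its group is assumed to vary like the other pair. Other p53 pathway genes called higher numbered 1, and 0 without the filter, 4 by voom, 5 after GC correction, 3 with the replicate block and 0 to 10 in the omissions. Those called lower numbered 0, and 2 by voom, 4 after GC correction and 0 to 6 in the omissions. Of all genes 86 were higher and 27 lower. The counts were 52 higher with TPM, 15 lower at a pseudocount of 0.1, 284 and 263 by voom, 248 and 254 after GC correction, 154 and 73 with the replicate block, and 49 to 1390 higher and 6 to 1614 lower in the omissions. Calls were higher for 76.1% in the main test, 65.6% at a filter of 5 FPKM, 51.9% by voom, 49.4% after GC correction, and 86.8%, 89.1%, 56.5% and 46.3% without WT replicates 1 and 2 and cKO replicates 1 and 2. Replicate numbers share no stated batch, and same-numbered libraries deviated with r = -0.093 across genes. Log2 fold changes near 0 turned sign with TPM for Gadd45b (-0.030), Aen (-0.061), Polk (-0.018) and Sesn2 (-0.020), and after GC correction for Polk (-0.022). With each library left out they ran from -0.29 to 0.082 for Ppm1d, -0.0064 to 0.13 for Gadd45b, -0.18 to 0.028 for Ei24, -0.012 to 0.073 for Aen, -0.037 to 0.16 for Polk and -0.074 to 0.22 for Sesn2. The cause was not tested. TPM moved the median of all genes to -0.09. The 2 planned count tests were not run, since the table holds FPKM.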

Other observations

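Both Btg2 and Phlda3 lie on chromosome 1, as does Mdm4. The nearest tested genes on either side of each called member were not called. Beside Phlda3, Csrp1 (13.9 kb away) had a log2 fold change of -0.06 ± 0.09 and Lad1 (49.5 kb) one of -0.44 ± 0.17 (limma, adjusted p = 0.75 and 0.248). Beside Btg2, Atp2b4 and Tmem183a had -0.02 and 0.10 (adjusted p = 0.898 and 0.604). Beside Psrc1, Psma5 and Sars had 0.03 and 0.05 (adjusted p = 0.912 and 0.794). The neighbours were looked up after the called members were known.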
